A study of Mus musculus with 8 samples.

Results

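The genes described are those of the mouse proteasome, chosen by symbol: every symbol of the authors' deposited table that starts with Psma, Psmb, Psmc, Psmd, Psme, Psmf or Psmg followed by a digit. The rule found 49 of 14033 symbols, each with 1 row. Of these, 48 encode proteasome subunits, regulators or assembly factors, and Psmc3ip, which matches by spelling alone and encodes a meiotic recombination factor, is given apart. RNA was measured in fetal liver cells of E14.5 mouse embryos from Flt3-Cre mice crossed with mTmG reporter mice. In that reporter the red Tomato protein is replaced for good by GFP once Cre has acted, so a GFP+ cell, or the cell it came from, has used the Flt3-driven Cre. The GFP+ group holds 4 libraries of GFP+ cells that lacked lineage markers and carried Kit, Sca1 and CD150, and the Tomato+ group holds 4 libraries of Tomato+ cells from the same gate and the same cross. No value for a single library is in the table used here, so every level below is the authors' group mean of normalized counts, no SD is given, and the p-values are the authors' own. The labels do not say whether the numbered libraries came from separate embryos, so those p-values may reflect technical spread.

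The proteasome degrades proteins that carry ubiquitin chains. Its 20S core is a barrel of alpha rings, which gate the entrance, and beta rings, which hold the proteases, and the 19S cap binds ubiquitin, removes it and feeds the unfolded chain into the core through a ring of ATPases. In cells exposed to interferon, and constitutively in many blood cells, the catalytic subunits Psmb6, Psmb7 and Psmb5 can be replaced by Psmb9, Psmb10 and Psmb8, which gives the immunoproteasome, a source of peptides for MHC class I. The comparison asks how the GFP+ and Tomato+ fractions differ in these genes.

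In the authors' deposited table all 48 proteasome genes had the higher mean in GFP+ cells, mostly by a small margin over Tomato+ cells, and 1 of them, Psmb5, passed the authors' adjusted p of 0.05. Over the 48 genes the median log2 of the GFP+ mean over the Tomato+ mean was 0.29, with a range from 0.020 to 1.6, and 35 genes lay between 0.19 and 0.45. Summed over the 48 genes, the means came to 51897 normalized counts in GFP+ cells and 42618 in Tomato+ cells, a ratio of 1.22. In bulk samples of this kind, a change in the share of cells of one type and a change in RNA per cell cannot be told apart.

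These values stand beside a table in which most rows lie close to 0. Of all 14268 rows, 51.2% were above 0, with a median log2 of 0.01. Of the 3455 rows with an overall mean from 500 to 2500, the range of 38 of the proteasome genes, 64.7% were above 0, and the median was 0.07 against 0.30 for those 38 genes. The authors' adjusted p called 4.86% of all rows higher in GFP+ and 2.64% lower, so 1 call among 48 genes is no larger a share than the background. At an unadjusted p under 0.05, 21 of the 48 genes were higher in GFP+, against 10.2% of all rows. At an adjusted p under 0.1 it was 7 of the 48, against 6.22% of all rows. A common scale matters for changes of this size. The group means of all rows sum to more in GFP+ than in Tomato+, and scaling both fractions to the same total lowers every log2 value by 0.16. On that scale the median was 0.14 for the proteasome genes and -0.15 for all rows. Of the 48 genes 39 were then above 0, against 30.9% of all rows.

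**Figure D1:**
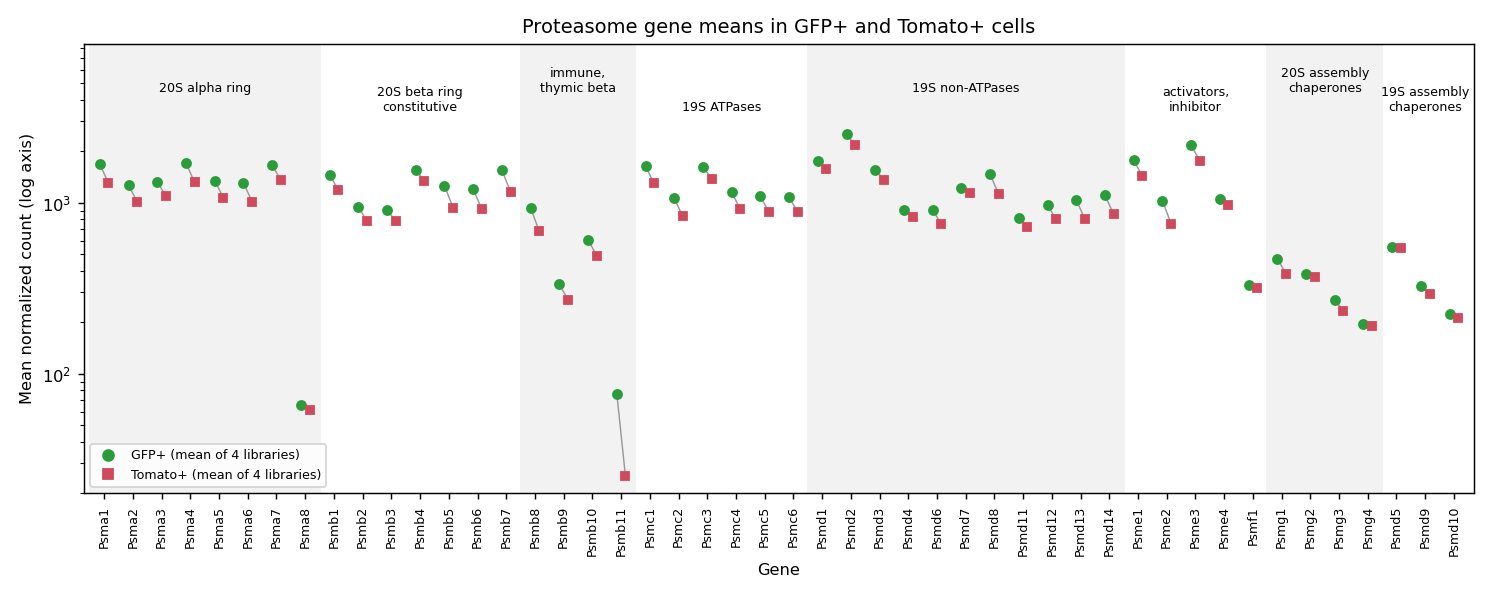
Mean normalized count (log axis) of each of the 48 proteasome genes in GFP+ cells (green circles) and Tomato+ cells (red squares), grouped by role; each point is the authors' mean of 4 libraries and no error bar can be drawn. Each green circle lies above its red square; levels of different genes are not corrected for length here. Psma8 and Psmb11 lie far below the rest.

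Genes that mark other fetal liver cells were higher in GFP+ cells in many cases. Of 13 macrophage markers 9 rose and 0 fell, with summed means of 2131 in GFP+ and 1189 in Tomato+ cells; of 13 hepatoblast markers 13 rose, with sums of 3209 in GFP+ and 1035 in Tomato+. Of 10 erythroid markers 8 rose and 0 fell, with sums of 38591 in GFP+ and 12266 in Tomato+. Of 11 B lymphoid markers 7 rose and 0 fell, with sums of 1174 in GFP+ and 302 in Tomato+. Rose and fell here mean past the authors' adjusted p of 0.05, which called 4.86% of all rows higher and 2.64% lower. Lower in GFP+ without passing were Epor (133 against 247 in Tomato+), Klf1 (232 against 319), Lyz2 (611 against 705) and Mrc1 (59.7 against 83.0). Most of the erythroid sums came from Hba-a2 (16122 in GFP+, 4190 in Tomato+) and Hbb-b1 (15589 and 4780). Cd5l, Marco, Alb, Afp, Hba-a2, Hbb-b1, Rag1 and Il7r had the smallest p-values of these lists, and no measured marker was at 0 in either fraction. Of 14 genes listed as stem cell markers 2 rose and 8 fell. The 2 that rose were Flt3 and Cd34, and Flt3 is also the gene whose Cre defines the GFP+ group. Flt3 averaged 3753 normalized counts in GFP+ cells against 1617 in Tomato+ cells, and Cd34 5974 in GFP+ against 3793 in Tomato+. Among those that fell was Esam, at 118 in GFP+ cells against 511 in Tomato+ cells (authors' deposited table). Of the sort markers in the authors' deposited table, Slamf1 (CD150) averaged 27.9 in GFP+ cells against 119 in Tomato+ cells, Kit 4087 in GFP+ against 4950 in Tomato+, and Ly6a (Sca1) 59.5 in GFP+ against 70.1 in Tomato+. Group means cannot tell RNA of other cells from RNA of the sorted cells. Any part of other cells in the proteasome values was not tested.

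Promoter sequence of Psmb5 and Psmb6 is shown because these genes encode proteases of the core and hold the core letters of an antioxidant response element, the site read by Nfe2l1, the factor known for raising proteasome genes together when proteolysis is impaired. The sequences are RefSeq's, in build GRCm38.p6, written in the direction of the gene. That of Psmb5 ends just before its first annotated exon, and that of Psmb6 is a stretch of 30 bases that ends just before the start given in the promoter table. Capitals mark the match to TGACNNNGC on either strand.
Psmb5, chr14:54618023-54618245, minus strand: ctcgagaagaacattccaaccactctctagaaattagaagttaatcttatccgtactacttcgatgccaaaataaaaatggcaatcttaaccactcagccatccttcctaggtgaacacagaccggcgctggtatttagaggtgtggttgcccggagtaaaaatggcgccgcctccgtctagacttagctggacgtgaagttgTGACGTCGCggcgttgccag
Psmb6, chr11:70525327-70525356, plus strand: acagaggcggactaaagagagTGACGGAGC
The match lies close to the start in both genes. RefSeq's record of Psmb6 begins upstream of the start in the promoter table, so the match in Psmb6 may lie within a transcript. The same letters were found in the windows of Psmc6, Psmd12, Psmd9 and Psme4, whose log2 values were 0.30, 0.27, 0.16 and 0.11. In all, 15% of the proteasome windows held them, near the 14% of all genes. A link between these letters and the values was not tested. The third protease gene, Psmb7, had no sequence in the promoter table.

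The alpha ring, which holds the gate of the core, had 8 of 8 genes above 0 and none past the threshold (7 at an unadjusted p under 0.05), with a median log2 of 0.33. Over all rows 51.2% were above 0, 4.86% were called higher, and 10.2% were higher at an unadjusted p under 0.05. Psma1 had the highest value of the ring, averaging 1683 normalized counts in GFP+ cells against 1301 in Tomato+ cells (authors' deposited table), 1.29-fold (authors' adjusted p = 0.102). Psma4 had almost the same ratio, averaging 1703 in GFP+ cells against 1317 in Tomato+ cells (authors' deposited table), also 1.29-fold, but an adjusted p of 0.302. The ratios were nearly equal and the p-values were not. The 7 ubiquitous alpha genes lay between 0.27 and 0.37. Psma8, the alpha subunit of the spermatoproteasome of the testis, had the lowest value, averaging 65.2 in GFP+ cells against 61.3 in Tomato+ cells (authors' deposited table), a log2 of 0.09 (adjusted p = 0.835).

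The constitutive beta ring had 7 of 7 genes above 0, with a median log2 of 0.30. Psmb5, which carries the chymotrypsin-like protease, rose 1.35-fold, averaging 1261 normalized counts in GFP+ cells against 934 in Tomato+ cells (authors' deposited table, adjusted p = 0.0402). Psmb7, which carries the trypsin-like protease, averaged 1556 in GFP+ cells against 1158 in Tomato+ cells, 1.34-fold (authors' deposited table, adjusted p = 0.0665). Psmb6, which carries the caspase-like protease, averaged 1201 in GFP+ cells against 919 in Tomato+ cells, 1.31-fold (authors' deposited table, adjusted p = 0.0715). These 3 catalytic genes held the highest log2 values of the ring, with a median of 0.43. The non-catalytic Psmb1, Psmb2, Psmb3 and Psmb4 lay at 0.30, 0.28, 0.20 and 0.20, with Psmb3 lowest (authors' deposited table: an average of 904 in GFP+ cells against 787 in Tomato+ cells, adjusted p = 0.553). That the catalytic genes differ from the others was not tested. The RefSeq gene list has pseudogenes named for Psma5, Psmb5, Psmb6 and Psmb7 in the mouse genome. The sources used here do not say how any reads shared with such copies were assigned, so these values carry that uncertainty.

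Each immune subunit also had a higher mean in GFP+ cells. The authors' adjusted p called 4.86% of all rows higher, and 10.2% were higher at an unadjusted p under 0.05. Of the 3 immune subunits 1 had an unadjusted p under 0.05, and none passed the threshold. Psmb8 missed it narrowly, averaging 931 normalized counts in GFP+ cells against 683 in Tomato+ cells, 1.36-fold (authors' deposited table, adjusted p = 0.0502). Psmb10 averaged 606 in GFP+ cells against 492 in Tomato+ cells, 1.23-fold (authors' deposited table, adjusted p = 0.434). Psmb9 averaged 333 in GFP+ cells against 271 in Tomato+ cells, 1.23-fold (authors' deposited table, adjusted p = 0.826). Both fractions thus expressed all 3 immune subunits, at summed means of 1870 in GFP+ and 1446 in Tomato+ cells.

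The ratio of immune to constitutive subunit in GFP+ cells lay near that in Tomato+ cells for Psmb8, and was somewhat lower for Psmb9 and Psmb10. Psmb8 stood at 0.738 of the Psmb5 mean in GFP+ and 0.731 in Tomato+ cells, a ratio of ratios of 1.01. Psmb9 stood at 0.277 of the Psmb6 mean in GFP+ and 0.295 in Tomato+ cells, a ratio of ratios of 0.938. Psmb10 stood at 0.390 of the Psmb7 mean in GFP+ and 0.424 in Tomato+ cells, a ratio of ratios of 0.918. In log2 the ratios of ratios were 0.01 for Psmb8, -0.09 for Psmb9 and -0.12 for Psmb10. These are ratios of group means, and no error can be given for them. Transcript length and any scaling factor common to a whole fraction cancel in this ratio of ratios. The scaling of single libraries within a fraction need not cancel, because each level is a mean of 4 libraries.

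**Figure D2:**
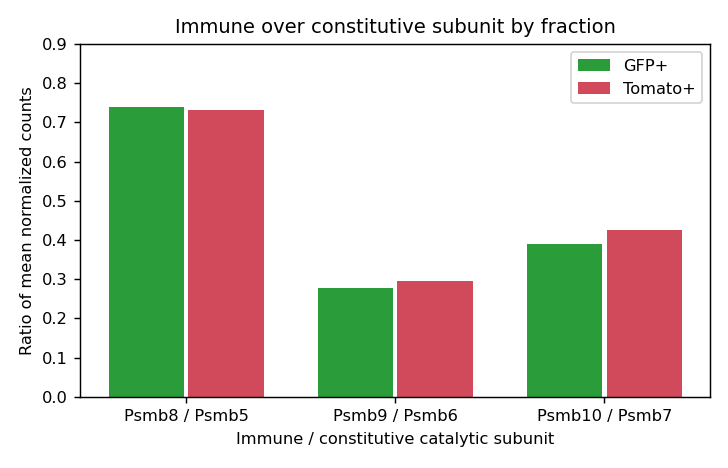
Ratio of the mean normalized count of each immune subunit to that of the constitutive subunit it replaces, in GFP+ cells (green, left bar) and Tomato+ cells (red, right bar); no error bar can be drawn from group means. The bars of a pair stand at 0.738 and 0.731 for Psmb8 over Psmb5, 0.277 and 0.295 for Psmb9 over Psmb6, and 0.390 and 0.424 for Psmb10 over Psmb7.

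Within a fraction, the share of the immune form needs a length. Per kilobase of coding sequence (GENCODE M21, GRCm38), Psmb8 made up 41.4% of the Psmb8 and Psmb5 level in GFP+ and 41.2% in Tomato+ cells. Psmb10 made up 28.3% of its pair with Psmb7 in GFP+ and 30.1% in Tomato+ cells, and Psmb9 23.1% of its pair with Psmb6 in GFP+ and 24.3% in Tomato+ cells. Per kilobase of whole transcript the shares were lower, at 29.0% and 28.8% for Psmb8, 25.6% and 27.3% for Psmb10, and 14.1% and 14.8% for Psmb9, in GFP+ and in Tomato+ cells. The shares therefore depend on the length used, and the constitutive subunit was the more abundant of each pair with either length. Per kilobase of whole transcript, the 14 constitutive core genes lay from 435 to 1813 normalized counts in GFP+ and from 348 to 1495 in Tomato+ cells, a span of 4.17-fold and 4.29-fold. Per kilobase of coding sequence, a length chosen after seeing the data, they lay from 1470 to 2227 in GFP+ and from 1179 to 1837 in Tomato+ cells, a span of 1.51-fold and 1.56-fold. How closely the core genes lie together thus depends on the length as well.

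Psmb11, the beta subunit of cortical thymic epithelium, had the largest ratio of the 48 genes and the lowest overall mean, 50.8. It averaged 76.5 normalized counts in GFP+ cells against 25.2 in Tomato+ cells, 3.04-fold (authors' deposited table, adjusted p = 0.0956). Psmb11 neighbours Psmb5 in the mouse genome, at a small fraction of its level.

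Psmb8 and Psmb9 sit side by side with Tap1 and Tap2, which encode the transporter that carries peptides to MHC class I, in the MHC region. Tap1 averaged 403 in GFP+ cells against 425 in Tomato+ cells, a log2 of -0.08 (authors' deposited table, adjusted p = 0.922). Tap2 averaged 716 in GFP+ cells against 670 in Tomato+ cells, a log2 of 0.10 (authors' deposited table, adjusted p = 0.993). In the list for MHC class I peptide loading, with 12 genes measured, 0 rose and 1 fell, with a median log2 of 0.11 (2 of the 12 at an unadjusted p under 0.05, both lower in GFP+, against 16.2% of all rows in either direction). The authors' adjusted p called 4.86% of all rows higher and 2.64% lower. The class I heavy chain gene H2-K1 averaged 1446 in GFP+ cells against 1948 in Tomato+ cells, a log2 of -0.43 (authors' deposited table, adjusted p = 0.0245). With both fractions scaled to the same total, Tap1 and Tap2 lay at -0.23 and -0.06, and Psmb8, Psmb9 and Psmb10 at 0.29, 0.14 and 0.15. Whether the immune subunits differ from these neighbours was not tested.

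**Figure D3:**
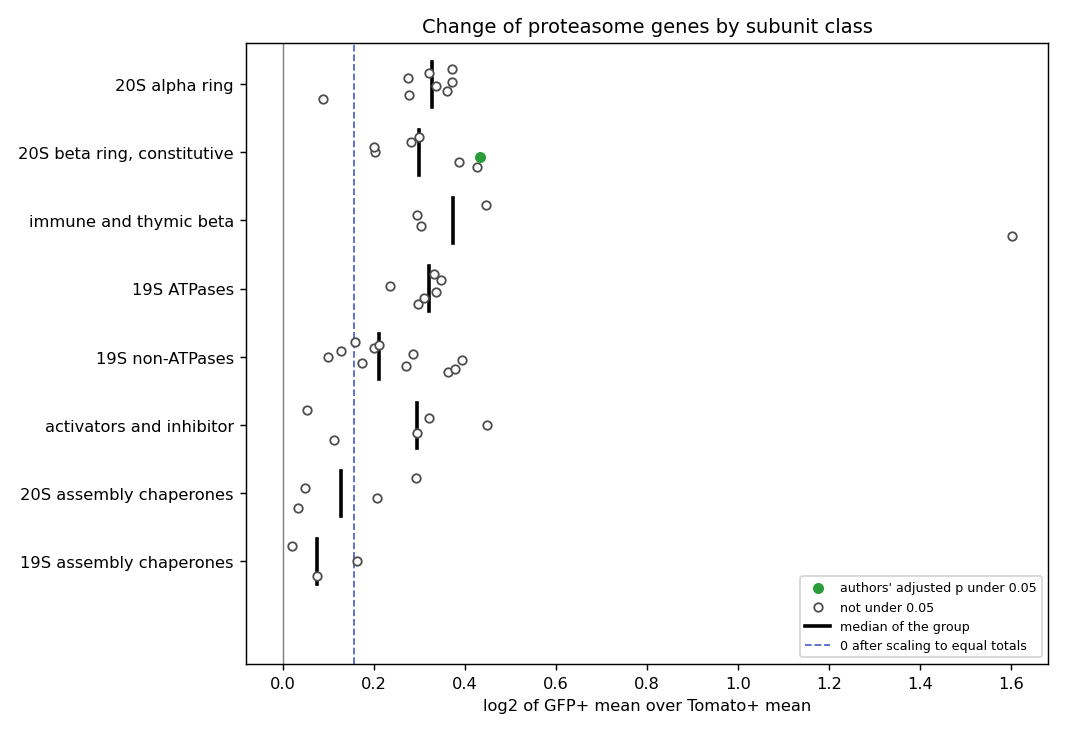
Log2 of the GFP+ mean over the Tomato+ mean for each proteasome gene (points; filled where the authors' adjusted p is under 0.05), by class, with the class median (bar); the solid line is 0 and the dashed line is where 0 lies after scaling both fractions to the same total. Core and ATPase classes have medians from 0.30 to 0.33, the assembly chaperones 0.13 and 0.07; Psmb11 stands alone at 1.6.

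The 6 ATPases of the 19S base, which unfold the substrate, lay close together, as did the alpha genes other than Psma8. All 6 ATPases were above 0, from 0.24 to 0.35 with a median of 0.32, and none passed (4 at an unadjusted p under 0.05). Beside this, 4.86% of all rows were called higher and 10.2% were higher at an unadjusted p under 0.05. Psmc2 was highest, averaging 1061 in GFP+ cells against 833 in Tomato+ cells, 1.27-fold (authors' deposited table, adjusted p = 0.295). Psmc3 was lowest, averaging 1630 in GFP+ cells against 1384 in Tomato+ cells, 1.18-fold (authors' deposited table, adjusted p = 0.469).

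The 11 non-ATPase genes of the cap spread more widely, from 0.10 to 0.39 with a median of 0.21, and again none passed (3 at an unadjusted p under 0.05). The shares of all rows were 4.86% called higher and 10.2% higher at an unadjusted p under 0.05. Psmd8, a lid subunit, was highest, averaging 1471 in GFP+ cells against 1120 in Tomato+ cells, 1.31-fold (authors' deposited table, adjusted p = 0.0584). Psmd14, the deubiquitinase of the lid, averaged 1105 in GFP+ cells against 859 in Tomato+ cells, 1.29-fold (authors' deposited table, adjusted p = 0.220). Psmd7, its partner in the lid, was lowest, averaging 1221 in GFP+ cells against 1140 in Tomato+ cells, 1.07-fold (authors' deposited table, adjusted p = 0.833). The lid thus held the highest and the lowest gene of the class. The ubiquitin receptor Psmd4 had a log2 of 0.13, and the large scaffold subunits Psmd1 and Psmd2 of the base had 0.16 and 0.21. With both fractions scaled to the same total, Psmd4 and Psmd7 lay below 0, at -0.03 and -0.06.

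Psme1 and Psme2 encode the interferon-inducible activator PA28 alpha-beta, which works with the immunoproteasome. Psme2 averaged 1030 in GFP+ cells against 755 in Tomato+ cells, 1.36-fold (authors' deposited table, adjusted p = 0.0974). Psme1 averaged 1782 in GFP+ cells against 1426 in Tomato+ cells, 1.25-fold (authors' deposited table, adjusted p = 0.232). Psme3, the nuclear PA28 gamma, had a log2 of 0.29. Psme4, the activator PA200, and Psmf1, an inhibitor of the core in vitro, had 0.11 and 0.05, and both lay below 0 when the fractions were scaled to the same total. The RefSeq gene list also has a protein-coding gene named as a copy of Psme2, Psme2b, so the value of Psme2 is uncertain. The core letters of an interferon-stimulated response element, GAAA and GAAA set 2 bases apart, were found in the Psme1 window and not in those of Psme2, Psmb8, Psmb9 or Psmb10. Psmb3, Psmd4, Psmd9 and Psmg4 also held them, at log2 values of 0.20, 0.13, 0.16 and 0.03. In all, 12.5% of the proteasome windows held them, against 3.99% of all genes. The Psme1 match is shown in capitals, in a stretch of 30 bases at the start of the gene, here read on the opposite strand.
Psme1, chr14:55578493-55578522, plus strand: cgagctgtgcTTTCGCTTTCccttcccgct

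The chaperones that build the proteasome had a median log2 of 0.07 over 7 genes, and -0.08 with the fractions scaled to the same total. None of the 7 was past the threshold or at an unadjusted p under 0.05. The threshold called 4.86% of all rows higher and 2.64% lower, and 16.2% had an unadjusted p under 0.05 in either direction. Among those of the core, Psmg1 was highest, averaging 472 in GFP+ cells against 385 in Tomato+ cells, 1.23-fold (authors' deposited table, adjusted p = 0.625). Psmg4 was lowest, averaging 195 in GFP+ cells against 191 in Tomato+ cells, 1.02-fold (authors' deposited table, adjusted p = 0.868). Among those of the cap, Psmd9 averaged 327 in GFP+ cells against 292 in Tomato+ cells, 1.12-fold (authors' deposited table, adjusted p = 0.795). Psmd5 had nearly equal means, 554 in GFP+ and 547 in Tomato+ cells, 1.01-fold (authors' deposited table, adjusted p of 1). With the fractions scaled to the same total, 4 of the 7 lay below 0. On that scale the median of all rows was -0.15, and 30.9% of them were above 0.

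Pomp, the maturation factor of the core, is not taken in by the symbol rule. It rose 1.52-fold, averaging 1255 in GFP+ cells against 823 in Tomato+ cells (authors' deposited table, adjusted p = 0.00823), and was the only one of 8 measured non-Psm subunits and partners to pass. Among all rows 4.86% were called higher. The 19S subunit genes Shfm1 and Adrm1 and the cap deubiquitinase Uchl5 had log2 values of 0.36, 0.28 and 0.32, in the range of the Psm genes of the cap. Below that range lay AI314180, Ube3c and Txnl1, at 0.04, 0.05 and 0.07, and all 3 were below 0 with the fractions scaled to the same total. The median log2 over the 8 was 0.23. Psmc3ip, no part of the proteasome, averaged 219 in GFP+ cells against 165 in Tomato+ cells, 1.33-fold (authors' deposited table, adjusted p = 0.358).

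Of 61 measured genes in 5 lists of the wider pathway, 3 rose and 1 fell, shares close to the 4.86% and 2.64% of all rows. Of the 13 ubiquitin and shuttle genes reported here, 2 rose. Ubb, a polyubiquitin gene, rose 1.43-fold, averaging 14149 in GFP+ cells against 9924 in Tomato+ cells (authors' deposited table, adjusted p = 0.000141). The ubiquitin-ribosomal fusion gene Rps27a rose 1.25-fold, averaging 6614 in GFP+ cells against 5281 in Tomato+ cells (authors' deposited table, adjusted p = 0.0285). The remaining 11 genes did not pass, and the median log2 over the 13 was 0.13.

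Genes known to control the proteasome were listed separately. Of 13 proteasome gene regulators, 0 passed the authors' DESeq-based adjusted p and 1 had an unadjusted p under 0.05, with a median log2 of -0.08. Of all rows, 4.86% were called higher and 2.64% lower, and 16.2% had an unadjusted p under 0.05 in either direction. Mafk, a partner of Nfe2l1, had a log2 of 0.27 and Foxo4 had -0.43 (authors' deposited table, adjusted p = 0.187 and 0.308), and Nfe2l1 itself averaged 897 in GFP+ cells against 916 in Tomato+ cells (authors' deposited table). Of 15 genes that induce the immunoproteasome, 0 passed and 3 had an unadjusted p under 0.05, 1 higher and 2 lower in GFP+, with a median of -0.01. That is near the 16.2% of all rows in either direction. The interferon signalling kinase Jak2 and the interferon receptor chain Ifnar2 had log2 values of -0.52 and 0.39 (authors' deposited table, adjusted p = 0.0767 and 0.140).

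**Figure D4:**
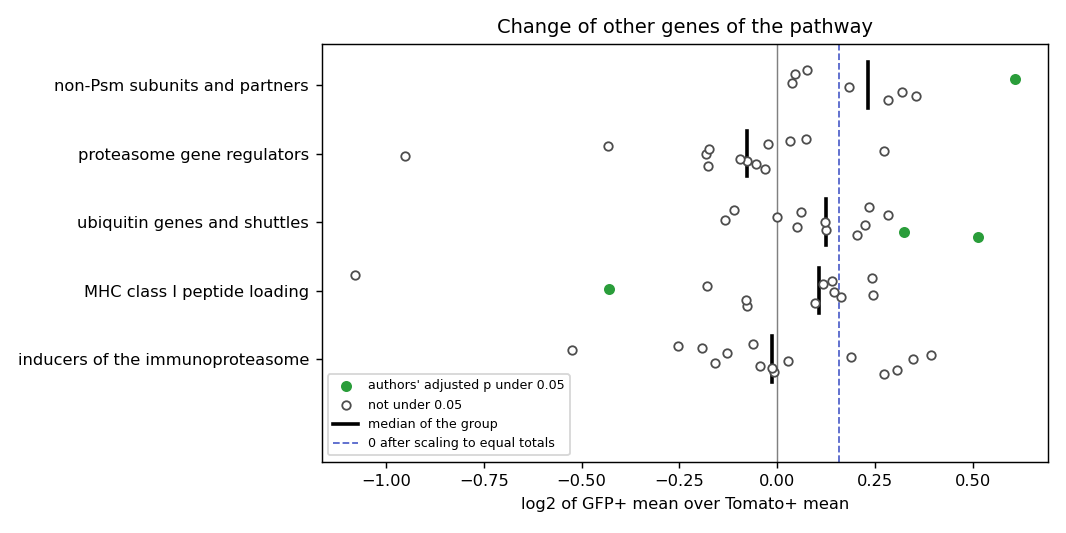
Log2 of the GFP+ mean over the Tomato+ mean for 61 other genes of the pathway (points; filled where the authors' adjusted p is under 0.05), with the list median (bar); the solid line is 0 and the dashed line is where 0 lies after scaling to the same total. The filled points are Pomp at 0.61, Ubb at 0.51, Rps27a at 0.32 and H2-K1 at -0.43.

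In the promoter windows, which run from 250 bases before to 50 after each start, 40 of the 48 genes matched a RefSeq sequence. The antioxidant element core TGACNNNGC was in 6 of the 40 (15%), against 14% of all 27025 genes, and the looser TGANNNNGC in 57.5% against 45%. The interferon-stimulated element, as GAAA and GAAA set 2 bases apart, was in 12.5% against 3.99%, and with a G added at its end in 10.0% against 1.34%. The ETS site CCGGAAG was in 35.0% against 9.93%, and the longer nuclear respiratory factor site in 17.5% against 5.19%. The CCAAT box was in 35.0% against 41.1%, the STAT site TTCNNNGAA in 7.50% against 9.55%, and the kappaB-like pattern, GGGA and CC set 4 bases apart, in 22.5% against 22.9%. The E-box CACGTG was in 10.0% against 8.09%, and no proteasome window held TTCCNGGAA or TGACGTCA, found in 1.35% and 2.03% of all genes. Both strands were searched, and the paired antioxidant, interferon and STAT patterns overlap each other by construction. The 27025 genes are not limited to the 14033 symbols measured here, so these shares are not matched for expression.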

How the data were processed

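Cells were sorted from E14.5 fetal livers. Per the labels, Trizol was used for the RNA and the NEBNext Ultra kit for the libraries. The submitters' processing notes name DESeq, bedtools, TopHat, TopHat2 2.0.11 and Bowtie2 2.2.1, without roles, and the build mm9. Per the file headers, the deposited signal is a baseMean, the normalized count averaged over all libraries or over a fraction, and the authors added a fold ratio, the log2 of that ratio, and p-values before and after adjustment. On the rows, the authors' ratio is Tomato+ over GFP+; it was turned here, so that positive log2 values mean higher in GFP+. The authors' adjusted p was recomputed by the Benjamini-Hochberg method over all 14268 rows, with a largest difference of 5.28e-08. A repeated header line was dropped.

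The planned test on libraries (edgeR) could not be run, so the authors' adjusted p under 0.05 was read instead; library depths are unknown, and no pseudocount or filter was used. The members and lists were chosen with earlier results of these data known. Named were the immune subunits, the called members, the highest and lowest log2 of each class, and the genes past the threshold in each other list or the 2 with the smallest p; other genes with values were picked after their values were seen, and so were the 12 sequence patterns. Gene symbols are those of the table, and 6 listed genes outside the rule had no row. Of the ubiquitin list, 2 further genes are not reported here and were left out of its counts and median. Sequences are RefSeq's (GRCm38.p6) and lengths those of the principal GENCODE M21 transcript, a build other than mm9, so no mm9 positions are given. The ratio and adjustment steps were run on simulated group means and p-values, which checks their arithmetic only. Python 3.11.15, pandas 2.3.3 and numpy 2.4.6 were used. The alternatives were other thresholds and adjustments, other scalings, a minimum mean, the choice of row and the length used.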

Additional observations from a re-analysis of the deposited data

How the results depend on the processing

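No paired analysis was possible because only group means were at hand; the replicate block, leaving out single libraries, other size factors and count filters therefore could not be run. Against 1 proteasome gene called, 7 were called at an adjusted p under 0.1 (6.22% of all rows were then called higher), and 0 at 0.01, with a Bonferroni adjustment or under a required log2 change of 1, each a stricter criterion; 21 had an unadjusted p under 0.05. With 1 row per symbol and p-values adjusted again, Psmb5 passed (0.0410) and Psmb8 did not (0.0511). A minimum mean of 50 and the choice of row changed nothing for these genes.

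Scaling both fractions to the same total gave medians of 0.14 for all 48 genes, 0.17 for the alpha ring, 0.14 for the constitutive beta ring, 0.22 for the immune and thymic genes, 0.16 for the ATPases, 0.054 for the non-ATPases, 0.14 for activators and inhibitor, and turned the medians of the chaperones of the core and of the cap to -0.029 and -0.082. Centring on rows with a mean of at least 50 gave, in the same order, 0.26, 0.30, 0.27, 0.34, 0.29, 0.18, 0.26, 0.097 and 0.044. By construction both shift every gene alike, and with equal totals the median of all rows was -0.15. The ratio of ratios of immune to constitutive subunits had a median of 0.938, with 1.01 for Psmb8 and 0.918 for Psmb10. Of the other pathway genes 4 passed, 6 at 0.1 and 2 at 0.01, and all 4 kept their direction with equal totals. The length used for levels per kilobase was an alternative chosen after seeing the data, as was the range of means from 500 to 2500.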
